A study of Mus musculus with 6 samples.

Results

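Interferon-induced genes and guanylate-binding proteins were examined in mouse liver, as 58 gene symbols of the 22068 listed. They were chosen by name: the families Ifit, Ifitm, Ifi, Oas, Gbp and Irf, together with Isg15, Usp18, Rsad2, Mx1, Mx2, Iigp1, Igtp, Irgm1 and Stat2. Transcripts of whole liver were measured by sequencing polyadenylated RNA, with 3 libraries labelled Mst1/2 liver-dKO (here dKO) and 3 labelled control. Mice of both groups were C57BL/6 and 6 weeks old, had lost Mst1 in the whole body (Mst1-/-) and carried a loxP-flanked Mst2 (Mst2fl/fl). The dKO mice carried Cre recombinase under the albumin promoter (alb-Cre+/+), which is active in hepatocytes, and the control mice did not (alb-Cre-/-). The controls were therefore Mst1-null and not wild type, and the deletion of Mst2 is aimed at hepatocytes and not at the immune or endothelial cells of the liver. Mst1 and Mst2 are Hippo pathway kinases that mouse gene lists call Stk4 and Stk3. The labels do not say whether each library came from its own animal, and p-values accordingly reflect only how these libraries spread, which may be technical.

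Interferons are secreted proteins of antiviral and antimicrobial defence. Type I interferons (alpha and beta) act through the receptor of Ifnar1 and Ifnar2 and a complex that holds STAT2 and IRF9 and binds the interferon-stimulated response element (ISRE) of genes such as Ifit1 and Isg15. Interferon gamma, made by T cells and NK cells, acts through Ifngr1 and Ifngr2 and on the gamma-activated site (GAS) of genes such as Irf1. It is a strong inducer of immunity-related GTPases and guanylate-binding proteins. Many genes answer both kinds of interferon. Here 25 members were placed in a type I class (Ifit, Oas, Mx, Isg15, Usp18, Rsad2, Stat2, Ifi35, Ifi44, Irf7, Irf9) and 18 in a gamma-type class (Gbp1 to Gbp11, Iigp1, Igtp, Irgm1, Ifi47, Ifi30, Irf1, Irf8). The others were 6 Ifitm genes, 4 genes of the p200 family and 5 further Irf genes.

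Promoters of 4 members are shown to set the elements of both classes side by side. They are RefSeq windows of the build GRCm38.p6, from 250 bases before to 50 bases after the annotated start, printed 5′ to 3′ on the gene's strand. Capitals mark the letters GAAANNGAAA or, on the other strand, TTTCNNTTTC for the ISRE, and TTCNNNGAA, which reads the same on both strands, for the GAS. Ifit1 stands for the type I class and shows 2 ISRE matches. Igtp shows a GAS match followed by an ISRE match. Gbp7 shows 2 GAS matches and then an ISRE match, and Irf1 shows a single GAS match.
Ifit1, chr19:34640639-34640938, + strand: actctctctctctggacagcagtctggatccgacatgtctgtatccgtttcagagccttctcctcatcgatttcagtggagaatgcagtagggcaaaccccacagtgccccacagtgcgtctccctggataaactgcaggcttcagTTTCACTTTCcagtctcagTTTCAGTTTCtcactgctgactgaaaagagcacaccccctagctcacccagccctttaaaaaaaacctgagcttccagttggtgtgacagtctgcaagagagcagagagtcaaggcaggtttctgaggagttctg
Igtp, chr11:58199306-58199605, + strand: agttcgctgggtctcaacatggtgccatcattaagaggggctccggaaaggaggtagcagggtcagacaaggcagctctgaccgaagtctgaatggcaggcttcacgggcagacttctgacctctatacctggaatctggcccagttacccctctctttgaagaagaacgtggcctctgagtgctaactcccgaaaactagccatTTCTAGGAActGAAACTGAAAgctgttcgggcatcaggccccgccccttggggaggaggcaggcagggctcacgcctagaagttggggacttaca
Gbp7, chr3:142530086-142530385, + strand: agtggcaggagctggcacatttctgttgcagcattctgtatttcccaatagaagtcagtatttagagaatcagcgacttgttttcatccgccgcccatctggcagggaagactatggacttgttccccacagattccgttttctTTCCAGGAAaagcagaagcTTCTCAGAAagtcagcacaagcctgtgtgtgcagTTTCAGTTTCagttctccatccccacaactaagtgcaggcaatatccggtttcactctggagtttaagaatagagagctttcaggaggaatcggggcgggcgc
Irf1, chr11:53769764-53770063, + strand: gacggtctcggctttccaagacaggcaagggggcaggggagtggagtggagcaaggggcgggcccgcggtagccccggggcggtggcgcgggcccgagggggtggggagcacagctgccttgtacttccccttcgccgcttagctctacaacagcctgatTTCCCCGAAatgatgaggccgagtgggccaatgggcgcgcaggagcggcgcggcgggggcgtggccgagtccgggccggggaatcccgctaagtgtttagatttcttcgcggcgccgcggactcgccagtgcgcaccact

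Positions are counted from the annotated start, and the base before it is -1. The Ifit1 matches began at -104 and -85, and the Irf1 match at -90. In Igtp the GAS match began at -45 and the ISRE match at -34. The Gbp7 GAS matches began at -106 and -87 and its ISRE match at -53. Ifit2, the type I member that changed most, had a GAS match at -241 and no ISRE letters in its windows. Of the members, 41 had a RefSeq window, some of them more than 1, which gave 47 windows. ISRE letters stood in 9 of 20 type I windows (45%) and in 6 of 13 gamma-type windows (46.2%), against 3.44% of all 32851 windows. GAS letters stood in 3 type I windows (15%) and in 5 gamma-type windows (38.5%), against 8.30% of all windows. In Ifitm3 a GAS match overlapped an ISRE match, the only such overlap among the members. Windows were not listed for 17 members, among them Gbp6, Gbp10, Iigp1, Mx2 and Usp18. A match describes letters and is no measured binding site.

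Values are read as RPKM (reads scaled to transcript length and library size), and a gene was tested where it averaged 1 RPKM or more over the 6 libraries. This held for 46 members and for 11062 genes in all. Changes are dKO minus control in log2(RPKM + 1), a scale on which low genes appear to change less than they did. The test was limma's, and a gene counts as called, or as having risen or fallen, where its Benjamini-Hochberg adjusted p lay under 0.05. RPKM summed to between 324034 and 352678 in dKO and between 364571 and 368246 in control libraries, and the spacing of low values gave estimated depths of 20.7 to 24.05 M reads in dKO and 17.1 to 24.5 M reads in control libraries. The median log2 change of all tested genes was 0.23, and after median-ratio scaling of the libraries it was -0.01, so a change near 0.23 is the change of the typical gene. Stk3 stood at 4.25 to 5.32 RPKM in dKO and 5.199 to 6.002 RPKM in control libraries, and Stk4 at 4.93 to 5.84 RPKM in dKO and 4.66 to 5.501 RPKM in control libraries. A gene-level value does not resolve the deleted part, and neither level checks the genotype. Libraries of dKO replicate 3 and control replicate 2 stood apart from their groups. The first principal component, with 67.3% of the variance, placed dKO replicate 3 at -49.0, against -20.3 and -19.2 for the other dKO libraries. The second, with 14.4%, placed control replicate 2 at 29.2 and the other 5 libraries between -14.0 and 3.38.

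Control replicate 2 carried far more transcript of the gamma-type members than the other control libraries and than any dKO library. All 18 tested gamma-type members were highest in that library, against 15.0% of all tested genes, and 2 of them (Gbp1 and Gbp5) reached the filter only through it. Its level over the mean of control replicates 1 and 3 had a median of 7.82-fold in the gamma-type class and ran from 2.37-fold for Ifi30 to 15.3-fold for Gbp10. In the type I class the median was 1.81-fold, with 1.10-fold for Stat2 at the low end and 2.64-fold for Oas1a at the high end. All 18 gamma-type and 4 of 16 type I members lay past 2-fold, as did 3.63% of all tested genes, whose median was 1.07-fold. Summed over the class, gamma-type transcripts came to 307, 317 and 334 RPKM in dKO libraries and to 354, 2582 and 276 RPKM in control libraries. No dKO library departed from its own group in this way: against the mean of the other dKO libraries, the median of the gamma-type members was 0.925-fold, 0.84-fold and 1.25-fold in dKO replicates 1, 2 and 3. As a single library, control replicate 2 allows no test of this difference. Among the 6585 genes that averaged 5 RPKM or more, the 30 with the largest ratio of control replicate 2 to the other controls held 9 members, Gbp10, Igtp, Gbp6, Gbp2, Iigp1, Gbp3, Gbp7, Ifi47 and Irgm1. Others among the 30 were the GTPase genes Tgtp1, Tgtp2 and Irgm2, the immunoproteasome genes Psmb8, Psmb9 and Psmb10, the peptide transporter gene Tap1 and the class II gene H2-Ab1. The 5 RPKM average includes control replicate 2, so genes could enter this ranking through that library. Gbp2 and Gbp3, for example, stood at no more than 4.23 and 4.71 RPKM in any other library. Members were 46 of the 11062 tested genes. The ranking used the levels of control replicate 2 itself and is no independent support.

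**Figure D1:**
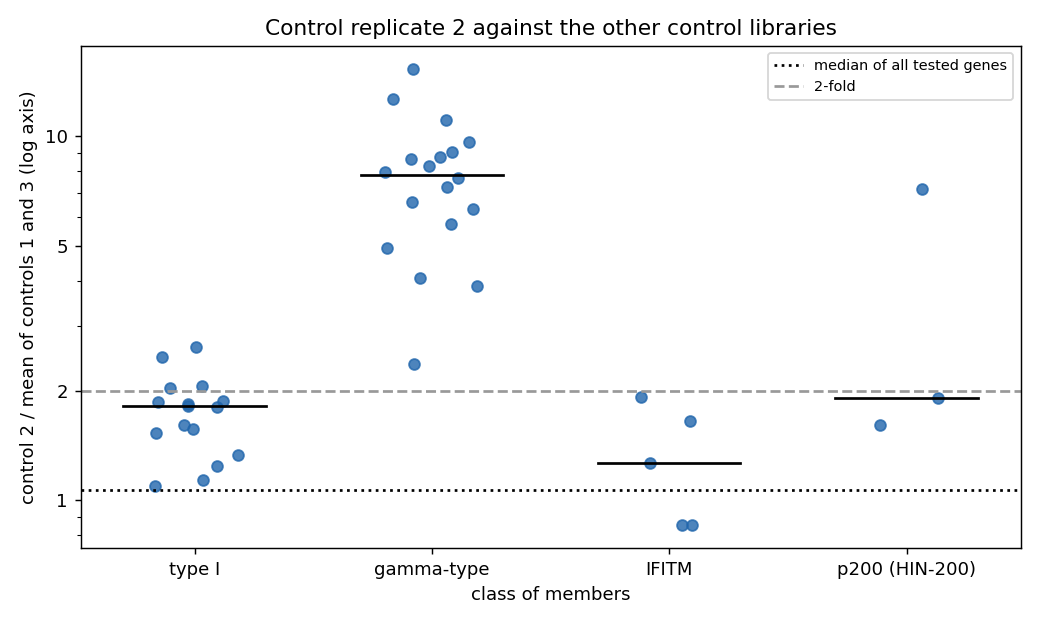
Level in control replicate 2 divided by the mean of control replicates 1 and 3 (log axis), 1 point for each tested member of the type I, gamma-type, IFITM and p200 classes, with bars at the class medians. The gamma-type members run from 2.37-fold to 15.3-fold with a median of 7.82-fold, and the type I members from 1.10-fold to 2.64-fold, while the median of all tested genes is 1.07-fold.

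Results are therefore given with and without that library. It was picked for its levels of these same genes. Its type I members were also high, at a median of 1.81-fold over the other controls, against 1.07-fold for all tested genes. Leaving it out thus raises the changes of such genes by construction, and calls gained in that way are no independent support. With all 6 libraries 3 of 16 tested type I members were called higher in dKO liver and 0 lower, a share of 18.8% against 17.8% of all tested genes called higher and 2.17% called lower. That share is close to the background and does not set the type I class apart. Leaving out control replicate 2, 8 of 16 were called higher and 0 lower, a share of 50% against 17.9% of all tested genes. With median-ratio scaling and all libraries it was 2 of 16 higher and 0 lower, against 7.86% of all tested genes called higher and 5.57% lower. Without dKO replicate 3 it was 2 of 16 higher (Ifit2 and Rsad2) and 0 lower, against 9.10% of all tested genes called higher and 1.16% lower. The median log2 change of the type I members was 0.41 with all libraries, 0.67 without control replicate 2 and 0.16 with median-ratio scaling. For all tested genes these medians were 0.23, 0.27 and -0.01.

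Of the 18 tested gamma-type members limma called 0 in either direction with all libraries. An unadjusted p under 0.05 was reached by 0 of them, against 4190 of all 11062 tested genes. When control replicate 2 was left out, 16 stayed above the filter, of which 0 were called higher and 1 lower (Gbp10). These were shares of 0% and 6.25%, against 17.9% and 2.17% of all tested genes. The median log2 change of the gamma-type members was -0.71 with all libraries, 0.12 without control replicate 2 and -0.97 with median-ratio scaling. Its sign thus rested on control replicate 2, and the 0.12 is over the 16 members left, without Gbp1 and Gbp5. For all tested genes these medians were 0.23, 0.27 and -0.01, above the gamma-type median in each setting. Whether the type I and gamma-type members changed differently was not tested, because the members were chosen with results known.

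**Figure D2:**
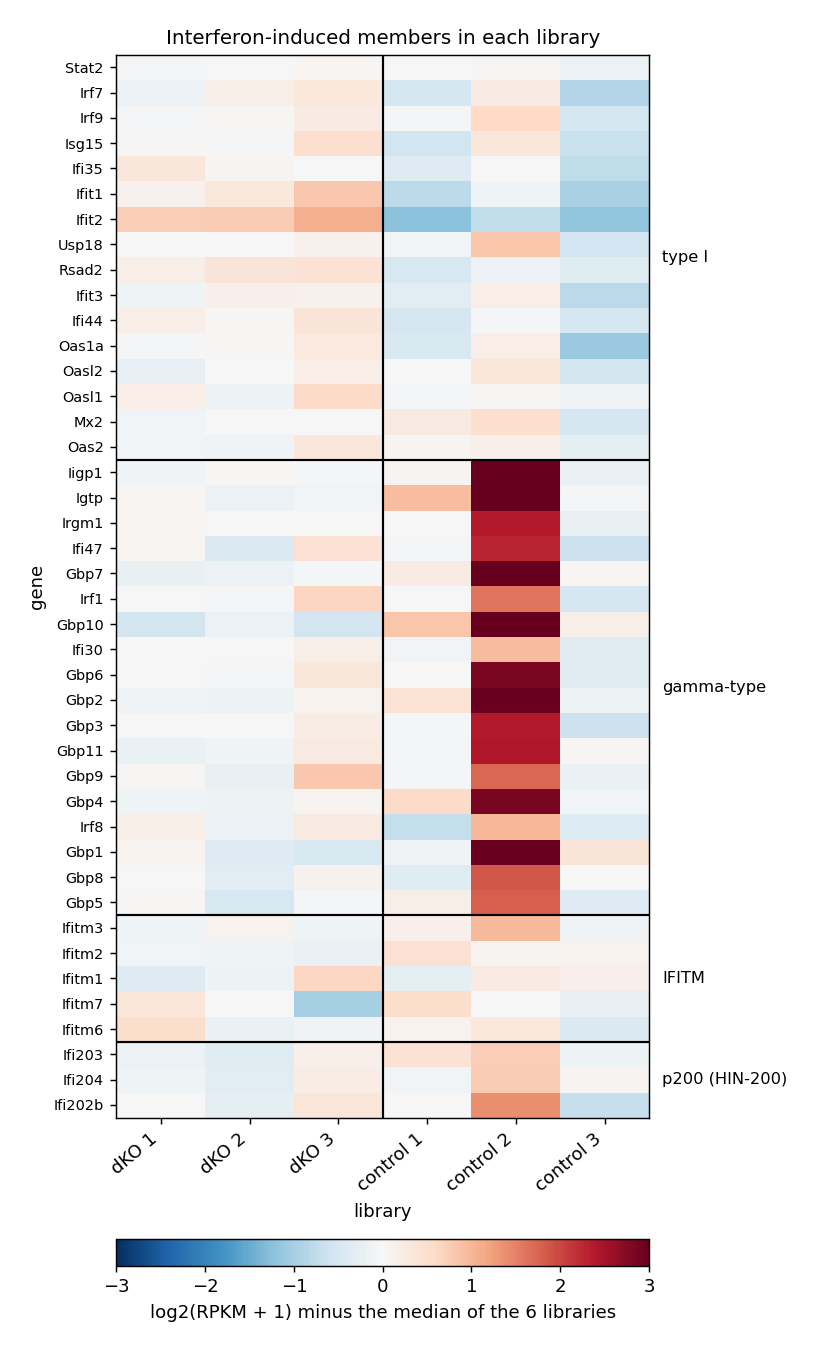
Each tested member of the type I, gamma-type, IFITM and p200 classes (rows) in each library (columns, dKO left), coloured by log2(RPKM + 1) minus the median of the 6 libraries, with the scale ending at 3 in either direction. The gamma-type block stands out in control replicate 2, and Ifit2 and Ifit1 are above their median in all 3 dKO libraries and below it in all 3 control libraries.

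The type I effectors that rose in dKO liver were Ifit2, Ifit1 and Rsad2. Ifit2, whose protein binds viral RNA and holds back translation, measured 11.1, 11.3 and 14.5 RPKM in dKO and 2.103, 3.39 and 2.22 RPKM in control libraries. Every dKO library was more than 3 times the highest control. Its mean was 12.3 ± 1.91 RPKM in dKO and 2.57 ± 0.713 RPKM in control (SD, n = 3 libraries each), a 4.78-fold difference. Limma gave a log2 change of 1.91 ± 0.17 (SE) with an adjusted p of 0.000713, and Ifit2 was called in all 14 alternatives that keep the threshold. Ifit1, a relative of Ifit2 that binds the ends of foreign RNA, measured 8.802, 10.2 and 14.7 RPKM in dKO and 4.197, 7.12 and 3.57 RPKM in control libraries. The groups did not overlap, and control replicate 2 was the nearest control. The log2 change of Ifit1 was 1.05 ± 0.25 (SE) and its limma adjusted p 0.0244, and without control replicate 2 the change was 1.30 ± 0.21. The call was lost without dKO replicate 3, without control replicate 1 or 3, without a filter and with quantile normalization. Over the 14 alternatives the limma adjusted p of Ifit1 ran from 0.00188 to 0.088.

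Rsad2 encodes viperin, which makes a nucleotide that ends viral RNA chains. It measured 6.75, 7.99 and 8.28 RPKM in dKO and 3.93, 5.14 and 4.34 RPKM in control libraries, again without overlap. The change was 0.67 ± 0.14 (SE) in log2 with a limma adjusted p of 0.0153. The call was lost with median-ratio scaling (limma adjusted p = 0.0528), with quantile normalization and without control replicate 1 or 3, and the adjusted p ran from 0.00237 to 0.066 over the 14 alternatives. Ifit3, the remaining Ifit member, stood at 4.64, 5.92 and 5.79 RPKM in dKO and 3.98, 6.09 and 2.56 RPKM in control libraries. Here the groups overlapped through control replicate 2, and the limma adjusted p was 0.292 with all libraries and 0.055 without that library.

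Several other type I members showed a like arrangement, with the dKO libraries above control replicates 1 and 3 and control replicate 2 among or near them. Isg15, a ubiquitin-like modifier, measured 12.8, 12.2 and 18.004 RPKM in dKO and 8.09, 16.05 and 7.52 RPKM in control libraries. Irf7, the transcription factor that amplifies type I interferon production, measured 12.5, 16.4 and 18.1 RPKM in dKO and 9.64, 17.2 and 7.28 RPKM in control libraries. Neither gene was called with all libraries (limma adjusted p = 0.249 for Isg15 and 0.229 for Irf7). Both were called once control replicate 2 was left out, with log2 changes of 0.78 ± 0.18 for Isg15 and 0.82 ± 0.19 for Irf7 and a limma adjusted p of 0.0225 each. Ifi35, an interferon-induced leucine zipper protein, measured 16.2, 13.4 and 12.7 RPKM in dKO and 9.41, 12.5 and 6.95 RPKM in control libraries. Ifi44 measured 3.898, 3.39 and 4.61 RPKM in dKO and 2.003, 3.2005 and 1.99 RPKM in control libraries. The groups of Ifi35 and of Ifi44 did not overlap, yet neither was called with all libraries (limma adjusted p = 0.0838 for Ifi35 and 0.0584 for Ifi44). Both passed without control replicate 2 (limma adjusted p = 0.0241 for Ifi35 and 0.0249 for Ifi44). Oas1a, an oligoadenylate synthetase that activates RNase L, measured 2.83, 3.08 and 3.82 RPKM in dKO and 1.86, 3.56 and 0.835 RPKM in control libraries. Its limma adjusted p was 0.213 with all libraries and 0.0311 without control replicate 2.

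**Figure D3:**
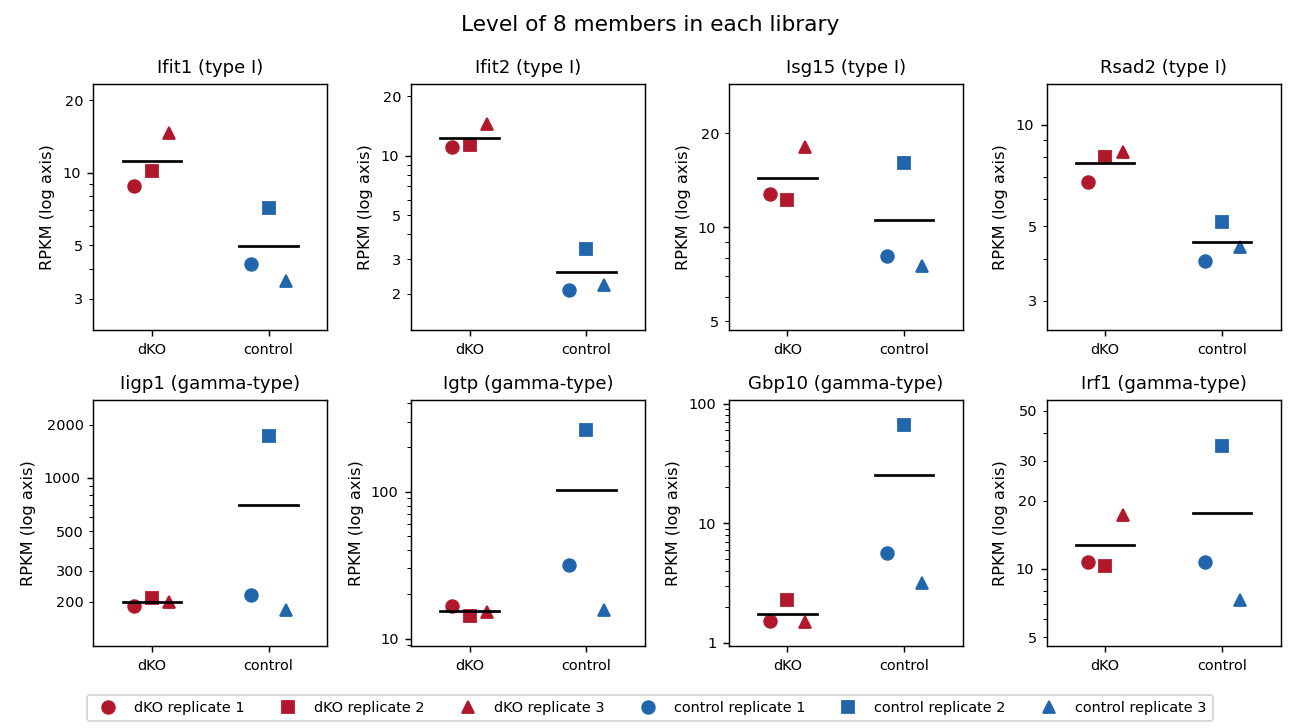
RPKM (log axis, a scale for each gene) of 4 type I and 4 gamma-type members in each library, with symbols for replicates 1, 2 and 3 and bars at group means. The dKO libraries of Ifit1, Ifit2 and Rsad2 lie above all controls, and control replicate 2 (square) stands at 1716 RPKM for Iigp1 and 262 RPKM for Igtp, far above the other 5 libraries.

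The signal carriers Stat2 and Irf9 and the remaining tested effectors were not called with or without control replicate 2. Stat2 measured 15.7, 16.3 and 17.1 RPKM in dKO and 16.6, 16.96 and 14.4 RPKM in control libraries, and without control replicate 2 the 95% interval of its log2 change was -0.23 to 0.38. Irf9, the DNA-binding partner of STAT2, measured 11.99, 12.6 and 14.95 RPKM in dKO and 12.1, 19.2 and 8.32 RPKM in control libraries. Usp18, the protease that removes ISG15 and dampens the type I receptor, measured 5.86, 5.64 and 6.41 RPKM in dKO and 5.37, 10.96 and 3.505 RPKM in control libraries. For Usp18 the dKO libraries lay above control replicates 1 and 3 and below control replicate 2 (limma adjusted p = 0.987, and 0.155 without control replicate 2). Mx2, a gene of the dynamin-like GTPase family, stood at 1.51 to 1.71 RPKM in dKO and 0.888 to 2.79 RPKM in control libraries. Oasl1, Oasl2 and Oas2 averaged 1.25 to 2.53 RPKM in either group and were not called.

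The type I members below 1 RPKM on average were not tested. Oas1c measured 1.04, 0.841 and 1.704 RPKM in dKO and 0.252, 0.191 and 0.167 RPKM in control libraries, and Oas1g measured 0.642, 1.13 and 1.79 RPKM in dKO and 0.347, 0.619 and 0.335 RPKM in control libraries. For these and for Oas1b, at 0.822 to 1.295 RPKM in dKO and 0.503 to 0.737 RPKM in control libraries, the groups did not overlap, and the dKO libraries were the higher ones. Mx1 stood at 0.459 to 0.657 RPKM in dKO and 0.124 to 0.569 RPKM in control libraries, and Oas3 at 0.426 to 0.6604 RPKM in dKO and 0.314 to 0.674 RPKM in control libraries. Oas1d, Oas1e and Oas1f were listed at 0 in all 6 libraries, and Oas1h was above 0 only in dKO replicate 3 and control replicate 2, at no more than 0.0723 RPKM. Over the tested type I members, 5 of 16 had groups that did not overlap with dKO higher, against 38.3% of all tested genes. Leaving out control replicate 2, it was 10 of 16, against 51.1%. Reads of the Oas1, Gbp, Ifi20x, Ifit and Irg families can be shared between near-identical copies, and how they were counted is not given, so values of single members are uncertain.

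Set against control replicates 1 and 3 alone, the mean level of the gamma-type members in dKO liver ran from 0.40-fold for Gbp10 to 1.92-fold for Irf8. Iigp1, an immunity-related GTPase that attacks the vacuoles of intracellular parasites, had the highest mean RPKM of the members in dKO liver after Ifitm3. It measured 189, 210.4 and 198 RPKM in dKO and 218, 1716 and 179 RPKM in control libraries. The dKO libraries lay between control replicates 1 and 3. Limma gave a log2 change of -1.03 ± 0.85 (SE) with an adjusted p of 0.408, and without control replicate 2 the 95% interval of the change was -0.38 to 0.40. Irgm1, a regulatory GTPase of the same family, measured 31.1, 29.6 and 29.9 RPKM in dKO and 29.6, 158 and 25.4 RPKM in control libraries. Its 95% interval without control replicate 2 was -0.17 to 0.44. Igtp, also called Irgm3, measured 16.8, 14.1 and 15.1 RPKM in dKO and 31.8, 262 and 15.6 RPKM in control libraries, so that control replicate 1 was above the dKO libraries too. Its log2 change was -1.68 ± 1.00 (SE) with all libraries (limma adjusted p = 0.266) and -0.51 ± 0.27 without control replicate 2 (limma adjusted p = 0.196). Ifi47, a further GTPase of the family, measured 15.5, 10.8 and 20.7 RPKM in dKO and 14.1, 76.2 and 9.05 RPKM in control libraries.

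Guanylate-binding proteins are large GTPases that assemble on pathogen membranes, and all 11 listed were tested. Gbp1 and Gbp5, like the p200 gene Ifi202b, reached the filter through control replicate 2 alone. Gbp1 stood at 0.9401, 0.383 and 0.291 RPKM in dKO and 0.695, 13.1 and 1.37 RPKM in control libraries, and Gbp5 at 1.17, 0.512 and 1.07 RPKM in dKO and 1.39, 6.398 and 0.632 RPKM in control libraries. Among the tested members Gbp10 had the most negative log2 change. It measured 1.52, 2.26 and 1.49 RPKM in dKO and 5.59, 67.1 and 3.18 RPKM in control libraries, without overlap. With all libraries the change was -2.17 ± 1.04 (SE) in log2 and the limma adjusted p 0.183, and without control replicate 2 they were -0.94 ± 0.24 and 0.029. Gbp7, which also did not overlap, measured 6.94, 7.17 and 7.89 RPKM in dKO and 9.94, 74.1 and 8.69 RPKM in control libraries. It was called neither with all libraries (limma adjusted p = 0.292) nor without control replicate 2 (0.14). Gbp7 and Gbp10 were the 2 gamma-type members whose groups did not overlap with dKO lower, against 6.73% of all tested genes, and 9.14% without control replicate 2. Without that library 3 of 18, Ifi30, Gbp3 and Irf8, had dKO higher without overlap, against 51.1% of all tested genes.

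Gbp2 measured 2.66, 2.56 and 3.22 RPKM in dKO and 4.23, 29.6 and 2.55 RPKM in control libraries. Gbp3 measured 4.001, 3.86 and 4.71 RPKM in dKO and 3.82, 24.8 and 2.15 RPKM in control libraries. Gbp6 measured 5.27, 5.07 and 6.92 RPKM in dKO and 5.197, 43.4 and 3.84 RPKM in control libraries. In each of these 3 genes control replicate 2 alone stood far from the rest. Gbp4, Gbp8, Gbp9 and Gbp11 averaged 1.09 to 2.84 RPKM in dKO libraries and reached 7.15 to 14.8 RPKM in control replicate 2.

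Of the transcription factors of the class, Irf1, an early target of interferon gamma, measured 10.8, 10.3 and 17.3 RPKM in dKO and 10.7, 34.8 and 7.28 RPKM in control libraries. Irf8, a factor of macrophages and dendritic cells, measured 3.62, 2.57 and 3.901 RPKM in dKO and 1.47, 7.16 and 2.04 RPKM in control libraries. The log2 change of Irf8 without control replicate 2 was 0.66 ± 0.20, with a limma adjusted p of 0.0507. Ifi30 encodes GILT, a thiol reductase of antigen processing, and measured 11.7, 11.9 and 13.4 RPKM in dKO and 11.04, 23.7 and 8.898 RPKM in control libraries. For Irf8 and Ifi30 the dKO libraries lay above control replicates 1 and 3 and below control replicate 2.

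**Figure D4:**
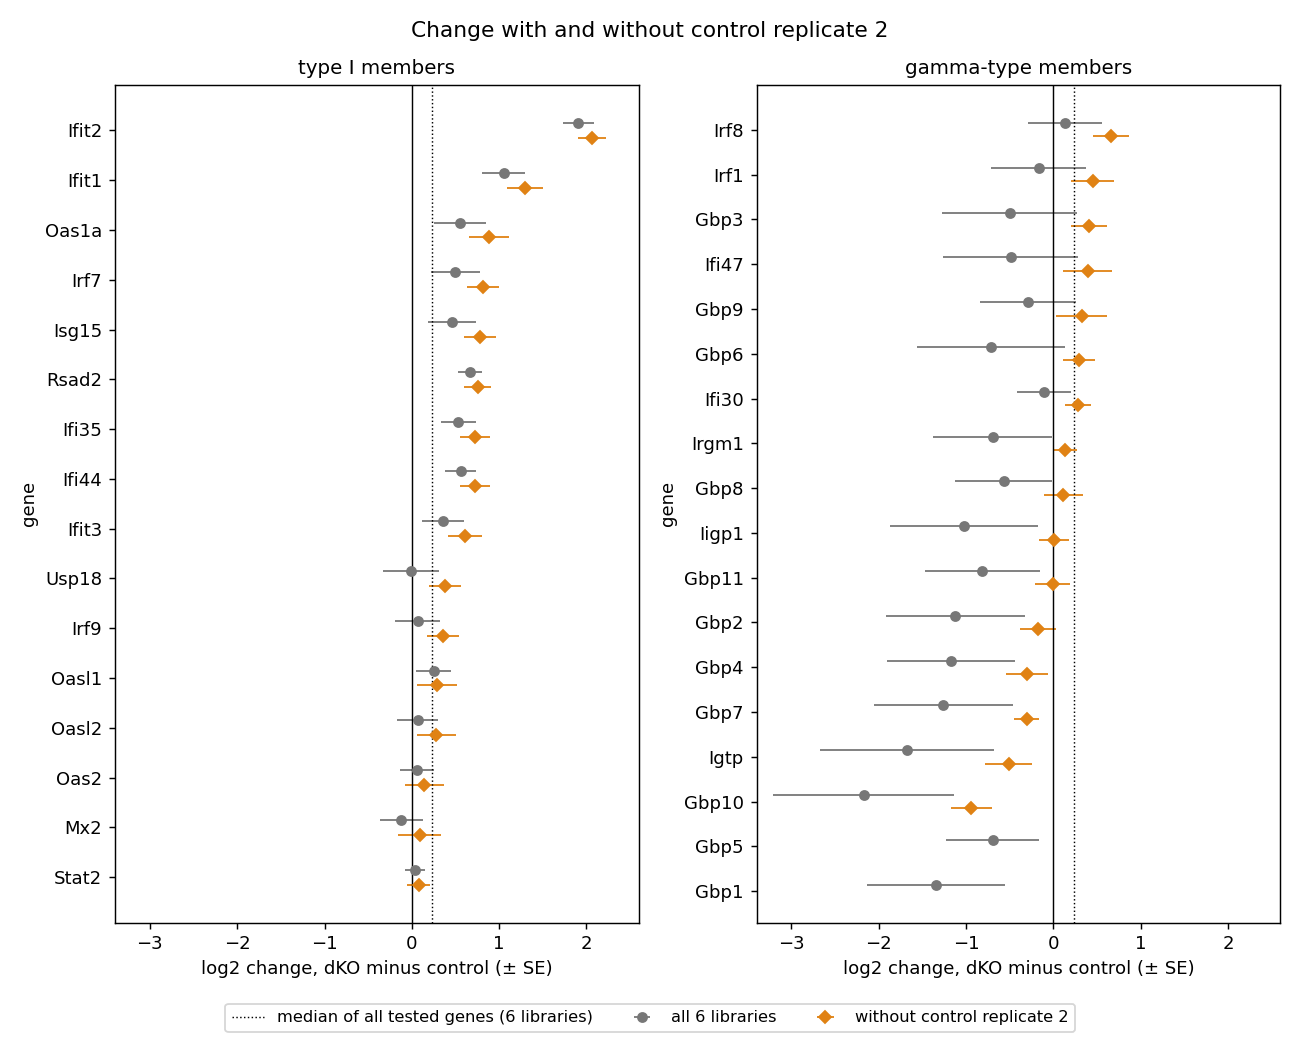
Log2 change (dKO minus control, ± SE) of each tested type I member (left) and gamma-type member (right), with all 6 libraries (circles) and without control replicate 2 (diamonds), beside the median of all tested genes (dotted). The gamma-type median is 0.12 without control replicate 2 and -0.71 with all libraries, and the type I median is 0.67 without it and 0.41 with all libraries. Gbp1 and Gbp5 have no diamond because they fell under the filter.

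Among the other interferon regulatory factors, Irf5 fell. Irf5, a factor of macrophages and B cells that drives inflammatory cytokines, fell to 3.87, 4.35 and 4.33 RPKM in dKO libraries, against 6.76, 5.83 and 7.43 RPKM in control libraries. Limma gave a log2 change of -0.56 ± 0.13 (SE) with an adjusted p of 0.0227. The call was lost without dKO replicate 1 and without control replicate 1 or 3, and the limma adjusted p ran from 0.000747 to 0.0876 over the 14 alternatives. Irf2 measured 15.4 to 17.5 RPKM in dKO and 14.4 to 17.5 RPKM in control libraries, and Irf3 11.6 to 12.5 RPKM in dKO and 10.99 to 12.9 RPKM in control libraries, with overlapping groups. Irf4 was not tested and stood at 0.1703 to 0.411 RPKM in dKO and 0.0123 to 0.102 RPKM in control libraries.

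The Ifitm genes encode small membrane proteins, several of which block viral entry. Ifitm3 measured 240.1, 281 and 240.4 RPKM in dKO and 291, 513 and 244 RPKM in control libraries, with control replicate 2 the highest. Ifitm2 measured 80.8, 77.6 and 74.02 RPKM in dKO and 118, 89.3 and 90.8 RPKM in control libraries. The groups of Ifitm2 did not overlap, but the gene was not called (limma adjusted p = 0.147). Ifitm1 stood at 3.797 to 8.56 RPKM in dKO and 4.1996 to 6.43 RPKM in control libraries, and Ifitm6 and Ifitm7 averaged 1.57 to 3.14 RPKM in either group. Ifitm5 was under the filter, at 0.129 to 0.728 RPKM in dKO and 0 to 1.22 RPKM in control libraries. Of the p200 family, which includes sensors of DNA, Ifi203, Ifi204 and Ifi202b were tested and not called. Ifi203 measured 3.14, 2.61 and 4.18 RPKM in dKO and 5.29, 6.79 and 3.16 RPKM in control libraries. Ifi205 was under the filter, at 0.229 to 0.552 RPKM in dKO and 0.7104 to 2.12 RPKM in control libraries.

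Upstream genes were taken from lists outside the naming rule. Of 10 interferon ligand genes 9, among them Ifnb1 and Ifng, were listed at 0 in every library, and Ifnk stood at no more than 0.15 RPKM. Of 5 tested receptor genes 3 rose and 0 fell, a share of 60% against 17.8% of all tested genes. Leaving out control replicate 2, 1 was called higher (Il10rb), a share of 20% against 17.9% and thus near the background. Il10rb, the receptor chain shared by interferon lambda and interleukin-10, rose to 10.9, 9.03 and 14.6 RPKM in dKO libraries, against 3.74, 5.59 and 5.57 RPKM in control libraries (limma adjusted p = 0.0104). Ifnar1 rose to 9.97, 10.01 and 12.98 RPKM in dKO libraries, against 7.47, 7.55 and 7.69 RPKM in control libraries (limma adjusted p = 0.0387, and 0.192 after median-ratio scaling). Ifngr1 rose to 25.02, 24.2 and 31.3 RPKM in dKO libraries, against 20.9, 16.6 and 19.3 RPKM in control libraries (limma adjusted p = 0.04996, and 0.347 after median-ratio scaling). In all 3 receptor genes each dKO library was above each control, as in 38.3% of all tested genes. The 3 genes were already called, so this separation adds no support.

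Of 5 signal carriers limma called 0 with all libraries, and 3 had an unadjusted p under 0.05, against 4190 of all 11062 tested genes. Leaving out control replicate 2, Tyk2 was called higher (limma adjusted p = 0.0491), a share of 20% against 17.9% of all tested genes. Of 7 negative regulators 1 rose with all libraries, a share of 14.3% against 17.8% of all tested genes and thus near the background. This was the feedback inhibitor Socs3, which rose to 3.54, 2.93 and 5.13 RPKM in dKO libraries, against 1.74, 2.19 and 1.77 RPKM in control libraries (limma adjusted p = 0.03, and 0.0543 after median-ratio scaling). Leaving out control replicate 2, 2 of the 7 were called higher, Socs3 and Ptpn6, a share of 28.6% against 17.9%. Of 13 nucleic acid sensors and adaptors limma called 0 with all libraries, and 3 had an unadjusted p under 0.05, against the same 4190 of 11062. Leaving out control replicate 2, the RNA sensor genes Ifih1 and Dhx58 were called higher, a share of 15.4% against 17.9% of all tested genes. That share is near the background. With median-ratio scaling the adaptor gene Mavs was called lower (limma adjusted p = 0.031), a share of 7.69% against 5.57%.

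Of 30 further interferon-induced genes 4 rose and 0 fell, a share of 13.3% against 17.8% of all tested genes, and without control replicate 2 it was 10 and 0, a share of 33.3% against 17.9%. With median-ratio scaling 1 was called higher, Ifi27l2b, and 2 were called lower, Sp100 and Ube2l6, against 7.86% and 5.57% of all tested genes. The 4 called higher with all libraries were Ifi27l2b, Lgals3bp, Trim25 and Samd9l. Ifi27l2b, a relative of the mitochondrial protein gene Ifi27, rose to 9.24, 6.87 and 11.3 RPKM in dKO libraries, against 1.64, 1.93 and 1.83 RPKM in control libraries (limma adjusted p = 0.000811). Cmpk2, the neighbour of Rsad2 that encodes a nucleotide kinase, measured 6.82, 6.96 and 7.98 RPKM in dKO and 1.77, 8.84 and 1.81 RPKM in control libraries. Its limma adjusted p was 0.197 with all libraries and 0.00127 without control replicate 2.

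Of 17 further gamma-induced genes, 1 of which (Gbp2) is a member, 0 rose and 1 fell. These shares were 0% and 5.88%, against 17.8% and 2.17% of all tested genes. The median log2 change of the 17 genes was -0.61 with all libraries. Without control replicate 2 it was 0.38 over the 15 genes that stayed above the filter. In that setting Tap1 was called higher and Gm4951 lower, a share of 6.67% each, against 17.9% and 2.17% of all tested genes. Tgtp1, an immunity-related GTPase gene, measured 3.08, 2.68 and 4.68 RPKM in dKO and 3.205, 95.2 and 1.29 RPKM in control libraries. The immunoproteasome gene Psmb9 measured 11.002, 10.8 and 19.7 RPKM in dKO and 7.798, 86.1 and 7.35 RPKM in control libraries. The gene that fell was Gm4951, to 30.5, 14.1 and 11.4 RPKM in dKO libraries, against 54.8, 81.1 and 49.7 RPKM in control libraries (limma adjusted p = 0.0171). Its groups did not overlap, and control replicate 2 was again the highest library.

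Markers of the cells that make or answer interferon were read in the same libraries. In whole liver, fewer cells of a type and less RNA per cell cannot be told apart. Hepatocyte markers were abundant in every library, with Alb at 34054 to 37822 RPKM in dKO and 36157 to 46961 RPKM in control libraries, but 2 of 5 were called lower in dKO. These were Ttr (limma adjusted p = 0.0413) and Serpina1c (0.0359), a share of 40% against 2.17% of all tested genes. Without dKO replicate 3, 0 of the 5 were called, against 1.16% of all tested genes called lower. With median-ratio scaling Serpina1c stayed called (limma adjusted p = 0.0459) and Ttr did not (0.0583). The 10 T and NK cell markers, of which 8 were under 1 RPKM in every library, summed to 4.502, 3.08 and 4.56 RPKM in dKO libraries and to 5.47, 7.78 and 1.99 RPKM in control libraries. Cd3e, which marks T cells, stood at no more than 0.166 RPKM and Ncr1, which marks NK cells, at no more than 0.937 RPKM. The sum was highest in control replicate 2, mostly through the granzyme genes Gzma and Gzmb, which summed to 2.32, 1.84 and 2.33 RPKM in dKO libraries and to 3.15, 5.36 and 0.868 RPKM in control libraries. The other 8 markers summed to 2.19, 1.24 and 2.23 RPKM in dKO libraries and to 2.32, 2.42 and 1.12 RPKM in control libraries, so control replicate 2 was close to control replicate 1. Their part in the gamma-type result was not tested.

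The 8 macrophage markers summed to 242, 198 and 297 RPKM in dKO libraries and to 145, 230 and 118 RPKM in control libraries. The 16 tested type I members summed to 120.1, 126 and 149 RPKM in dKO libraries and to 87.2, 131 and 68.3 RPKM in control libraries. In both sums control replicates 1 and 3 were the lowest libraries, and the part of macrophage RNA in the type I result was not tested. The endothelial markers showed this too, at 85.6, 81.3 and 97.7 RPKM in dKO and 79.5, 84.4 and 76.1 RPKM in control libraries. So did the sums of dendritic and B cell markers. The sums of T and NK, neutrophil, stellate, cholangiocyte, erythroid and hepatocyte markers did not. Of the macrophage markers 2 of 8 were called higher in dKO with all libraries (25% against 17.8% of all tested genes), and 6 of 8 without control replicate 2 (75% against 17.9%). Marco, a scavenger receptor of macrophages, lay the other way, at 4.79, 2.74 and 3.04 RPKM in dKO and 11.6, 20.4 and 5.51 RPKM in control libraries. It was not called with all libraries (limma adjusted p = 0.0531) and was called lower with median-ratio scaling (0.037). Cholangiocyte markers, led by Spp1, summed to 324 to 956 RPKM in dKO and 21.5 to 70.4 RPKM in control libraries, and their part in the calls of the type I members was not tested. The 4 neutrophil markers summed to 35.1 to 73.8 RPKM in dKO libraries and to 55.9, 105.2 and 51.4 RPKM in control libraries. The 5 B cell markers summed to at most 3.96 RPKM in any library.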

How the data were processed

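Polyadenylated RNA of 6 mouse liver libraries, 3 dKO and 3 control, was sequenced. The authors deposited 1 value per gene symbol and library, which was read as RPKM although no header or label states the unit. For genes with 1 GENCODE M21 transcript (3973 symbols), 72.7% to 79.5% of low values lay within 0.15 of a whole read at the best spacing, against 30% of evenly spread values. Per the submitters' processing notes the build was mm9, while aligner, counter and annotation stand as not given in the sources used here.

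Values were taken as log2(RPKM + 1). The model was limma 3.58.1 in R 4.3.3, with trend and robust moderation, fitted to the 11062 genes that averaged 1 RPKM or more, with Benjamini-Hochberg adjustment over all of them. It was tested on simulated data in which all genes had the same noise and no library stood apart. That test therefore does not cover a library such as control replicate 2. Figures were drawn in Python 3.11.15 with matplotlib 3.10.9. The main model did not pair libraries by replicate number. Deviations from the group means correlated by -0.08, -0.10 and -0.01 between dKO and control libraries of the same number. Such deviations offset one another within a group of 3, so these values cannot exclude a pairing. The text names with values the called members, the 9 members listed by symbol, members that averaged 5 RPKM or more, and at most 4 called genes of each further list. Lower members, Tgtp1, Psmb9, Cmpk2, Ifih1, Dhx58, Mavs, Sp100, Ube2l6, Tyk2, Ptpn6 and the markers and ratio-ranked genes were added after their values were seen. A few genes that the rule names are not reported here. Members, classes and lists were chosen with earlier results of these data known, so no list was tested as such. Alternatives were another pseudocount, other filters and scalings, sample weights, plain moderation, a stricter threshold, a replicate block and each library left out.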

Additional observations from a re-analysis of the deposited data

How the results depend on the processing

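Counts are of genes called higher or lower in dKO liver. Among the members 4 were higher with the settings of the report, 2 with median-ratio scaling, 1 with quantile normalization, 9 with sample weights, 1 at an adjusted p under 0.01 and 1 to 9 with a library left out. Members called lower numbered 1, and 2 with quantile normalization, 0 at 0.01 and 0 to 2 with a library left out. Of the type I members 3 were higher, and 1 with quantile normalization, 7 with sample weights, 1 at 0.01, and 1 (without control replicate 1) to 8 (without control replicate 2) with a library left out. Of the gamma-type members 0 were lower, and 0 to 1 with a library left out. Of all tested genes 1965 were higher, and 866 with median-ratio scaling, 727 with quantile normalization, 4133 with sample weights, 490 at 0.01 and 763 to 1992 with a library left out. Of all tested genes 240 were lower, and 145 without a filter, 613 with median-ratio scaling, 554 with quantile normalization, 601 with sample weights, 49 at 0.01 and 90 to 241 with a library left out. With the replicate number as a block, 1513 of all tested genes were higher and 202 lower, and the block changed the call of no member named. Over 29 genes and 14 alternatives, 36 of 406 log2 changes turned their direction, and 0 of these were called. With sample weights the change was 0.20 for Ifi47, 0.17 for Irf1, 0.15 for Ifi30, 0.18 for Gbp3, 0.34 for Usp18 and 0.17 for Mx2. It was negative with median-ratio scaling for Irf2 (-0.26), Irf3 (-0.23), Stat2 (-0.24) and Irf9 (-0.20), and with quantile normalization for Irf2 (-0.22), Irf3 (-0.20), Stat2 (-0.195) and Irf9 (-0.16). With a pseudocount of 0.1 Usp18 stood at 0.01. With a library left out, changes ran from -0.32 to 0.18 for Ifitm1, -1.62 to 0.0116 for Iigp1, -1.16 to 0.13 for Irgm1, -1.08 to 0.39 for Ifi47, -0.61 to 0.45 for Irf1, -0.37 to 0.28 for Ifi30, -1.31 to 0.29 for Gbp6, -1.11 to 0.41 for Gbp3, -0.0663 to 0.0684 for Irf2, -0.002 to 0.11 for Irf3, -0.0333 to 0.0773 for Stat2, -0.20 to 0.36 for Irf9, -0.33 to 0.38 for Usp18 and -0.42 to 0.0879 for Mx2. The cause of these differences was not tested. With 3 libraries a group, differences within the spread that control replicate 2 brings to the gamma-type members were not detectable.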
